A study of Mus musculus with 8 samples.

Results

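LN from H3RKO mice injected with adjuvant were compared with LN from WT mice injected in the same way. The comparison held 4 of the 8 arrays of the series, picked by their genotype and treatment labels alone: H3RKO CFA and H3RKO CFA+PTX against WT CFA and WT CFA+PTX. Every array was made from a pool of 3 or more mice of both sexes, 8 weeks old, so there were 2 arrays against 2 and 1 array per genotype within a treatment. WT mice were C57BL/6, and H3RKO mice carry a targeted deletion of the histamine H3 receptor gene Hrh3 in every cell, made in embryonic stem cells of another mouse strain and crossed to C57BL/6. All 4 pools had received CFA (complete Freund's adjuvant, an oil emulsion with killed mycobacteria), 1 pool of each genotype had also received PTX (pertussis toxin, which blocks Gi/o proteins), and LN were removed after 24 h. For CFA+PTX the sample titles mention PTX only, but the descriptions mention both agents and were followed here. The other 4 arrays, 2 of untreated WT and 2 of untreated H3RKO LN, were outside the comparison and are given beside it.

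H3R is a Gi/o-coupled receptor of neurons, where it sits on nerve endings and restrains the release of histamine and of other transmitters. It is chiefly known from the brain, while the LN itself is innervated by sympathetic fibers. After adjuvant reaches a LN, its macrophages and dendritic cells sense the mycobacteria, interferons and chemokines are induced, and neutrophils and monocytes enter from the blood. The question put to these arrays was whether the genotype difference ran the same way after both adjuvants.

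All values are log2 RMA signals, so a difference of 1 is a 2-fold change, and differences are given as H3RKO minus WT. The fit took the mean of the CFA difference and the CFA+PTX difference, with an SE from how far these 2 differences lay apart, moderated by limma across 22626 probe sets. A probe set was called with an unadjusted p under 0.05, a fold change over 2 and the same sign in both treatments. The LN markers Cd3e, Cd4, Cd8a, Cd79a, Ms4a1, Cxcl13, Glycam1 and Lyve1 were brighter than 82.7 to 99.5% of genes in these arrays. The WT CFA+PTX array stood apart from the others. Its mean signal over 17 salivary and lacrimal gland genes was 5.62, against 10.51 in WT CFA, 10.50 in H3RKO CFA and 10.95 in H3RKO CFA+PTX. Gland signal was also low in 1 untreated WT array, at 8.20 against 10.52 to 11.21 in the other untreated arrays. H3RKO CFA had the highest 3′ minus 5′ signal of the control transcripts, 0.439 against 0.164 to 0.346 elsewhere. The part of these array features in the results below was not tested, and values are given beside the results they touch.

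Hrh3 itself has 1 probe set (1448807_at) on the array. Its log2 signal was 6.66 in WT CFA, 6.63 in WT CFA+PTX, 7.29 in H3RKO CFA and 7.25 in H3RKO CFA+PTX. Both H3RKO arrays lay above both WT arrays, with a difference of 0.62 ± 0.08 (SE, n = 2 arrays per genotype), and the untreated arrays differed by 0.60. Where the probe set lies in relation to the deletion is not known here, and its signal therefore does not check the labels. The stretch of chromosome 2 around a targeted gene can stay of the strain of the stem cells after crossing. Within 5 Mb of Hrh3, 45 genes were measured, of which 20 had a positive and 25 a negative difference, with a median of −0.01 (0.00 over all 12393 genes). An unadjusted p under 0.05 was reached by 3 as higher (1.55% of all genes), Col20a1, a collagen gene (0.49), Tcfl5 (0.27) and Osbpl2 (0.22). It was reached by 3 as lower (1.78%), Sox18, an endothelial transcription factor (−0.25), Lama5, a laminin chain (−0.24), and Slc17a9, a vesicular nucleotide transporter (−0.22).

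The genotype differences after CFA and after CFA+PTX had little in common across the array. They had the same sign for 49.2% of probe sets, and Pearson's r between them was −0.05 across probe sets, which are not independent replicates. The CFA+PTX difference was the wider, with 128 probe sets over 2-fold against 60 after CFA. Only 3 probe sets passed 2-fold the same way in both treatments (0.0133% of those tested), namely Ppbp, 1420465_s_at and 1427820_at, while 14 passed it in opposite directions. At a lower limit of 0.5 in both treatments, 37 probe sets (0.164%) ran the same way, 19 higher and 18 lower in H3RKO LN, and 69 ran in opposite directions. The contractile protein genes of skeletal muscle are an example of the latter. Myh4, a fast myosin heavy chain, differed by 1.04 after CFA and by −1.82 after CFA+PTX, and Acta1, skeletal actin, by 1.24 and −1.35.

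**Figure D1:**
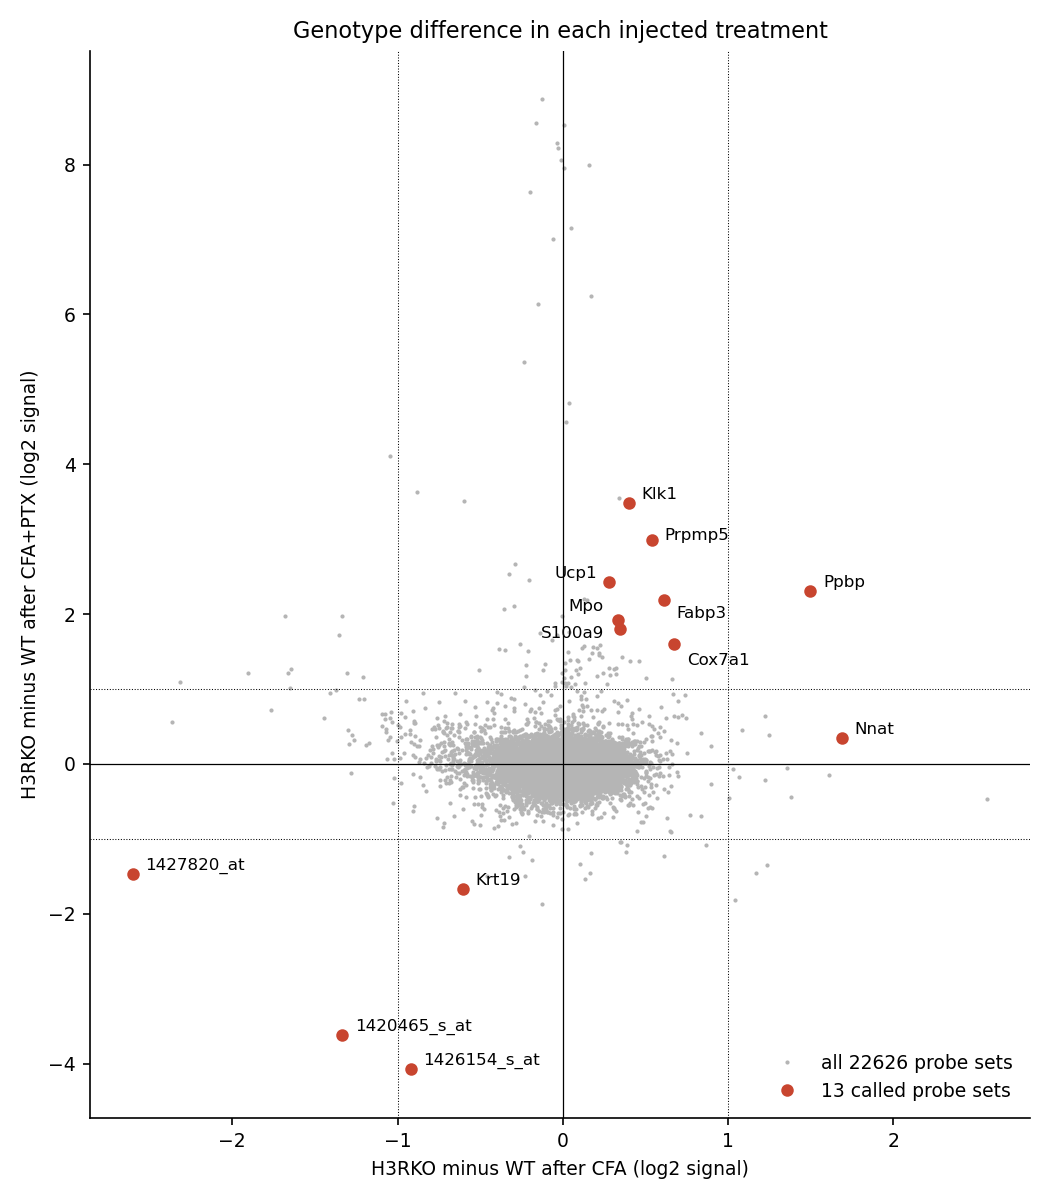
Each point is 1 probe set, with its H3RKO minus WT difference after CFA on the x axis and after CFA+PTX on the y axis (log2 signal, 1 array per genotype in each). Dotted lines mark 2-fold, red points are the 13 called probe sets, and the column of grey points rising to nearly 9 at an x value near 0 holds the gland genes. Ppbp is the 1 called point over 2-fold in both treatments on the upper right.

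In the fit over both treatments, 13 probe sets were called (0.0575% of those tested), 9 higher (0.0398%) and 4 lower (0.0177%) in H3RKO LN. They stand for 10 named genes, and 3 probe sets could not be given a gene name. The 9 named genes that were higher are Ppbp, Klk1, Prpmp5, Fabp3, Ucp1, Cox7a1, Mpo, S100a9 and Nnat, and the 1 that was lower is Krt19. None passed Benjamini-Hochberg adjustment over all probe sets (lowest adjusted p = 0.999 in limma), and 864 probe sets (3.82%) had an unadjusted p under 0.05, where a threshold of this size alone lets through 1131. In 10 of the 13, probe sets picked by p and fold in these same arrays, the 2 H3RKO arrays did not overlap the 2 WT arrays, 6 lying above and 4 below them. Over all genes 15.8% lay above and 13.2% below. In Fabp3, Ucp1 and Cox7a1 they did, with WT CFA above H3RKO CFA+PTX. In the untreated arrays, 12 of the 13 had a difference of the same sign (49.2% of all probe sets), the exception being Nnat. For Klk1 and Prpmp5, 1 untreated WT array with low gland signal was the low one, at 7.73 and 4.83.

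Ppbp, on chromosome 5, encodes pro-platelet basic protein, a platelet precursor of the neutrophil-attracting chemokine CXCL7. Its signal was 4.90 in WT CFA and 5.45 in WT CFA+PTX, and 6.40 in H3RKO CFA and 7.76 in H3RKO CFA+PTX. Untreated WT LN had 4.65 and 4.63 and untreated H3RKO LN 5.11 and 5.34, so all 4 H3RKO arrays lay above the untreated WT arrays and only the injected ones above every WT array. H3RKO LN had 2.82 times the WT signal after CFA and 4.96 times after CFA+PTX. The mean difference was 1.90 ± 0.20 (SE, n = 2 arrays per genotype), and it was larger than the untreated difference of 0.59 by 1.32 ± 0.26 (adjusted p = 0.938 in limma). Ppbp did not pass adjustment in the fit over the injected arrays (adjusted p = 0.999 in limma). A fit of all 8 arrays with 6 group means holds 1 array per injected group and takes its SE from the untreated pairs. Its p therefore does not measure the spread between injected pools.

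Ppbp lies in a cluster of chemokine genes on mouse chromosome 5 (GRCm38.p6), and its neighbours, looked at after their values were known, were higher in part. Pf4, platelet factor 4, whose gene starts after Ppbp at chr5:90772435-90773383, had 8.20 and 8.25 in the WT arrays and 8.56 and 8.62 in the H3RKO arrays, CFA first. The difference was 0.36 in each treatment (0.36 ± 0.08 in the fit) and −0.04 in untreated LN. Cxcl1, a neutrophil-attracting chemokine at chr5:90891245-90893121, had 7.47 and 7.87 in WT and 8.16 and 8.49 in H3RKO LN. Its difference of 0.66 ± 0.08 (0.69 after CFA, 0.63 after CFA+PTX) had no counterpart in untreated LN (−0.01). Cxcl5 had 0.29 ± 0.08, and 0.40 in untreated LN, while Cxcl15 (−0.18 ± 0.10) and Cxcl2 (−0.07 ± 0.16) did not pass. Platelet genes as a list did not follow Ppbp. Of 15 measured, 8 had a positive and 7 a negative difference with a median of 0.00, and Alox12, platelet lipoxygenase, was higher (0.28 ± 0.08), while P2ry12, the platelet ADP receptor, (−0.38 ± 0.14) and Clec1b, a platelet lectin receptor, (−0.24 ± 0.09) were lower.

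**Figure D2:**
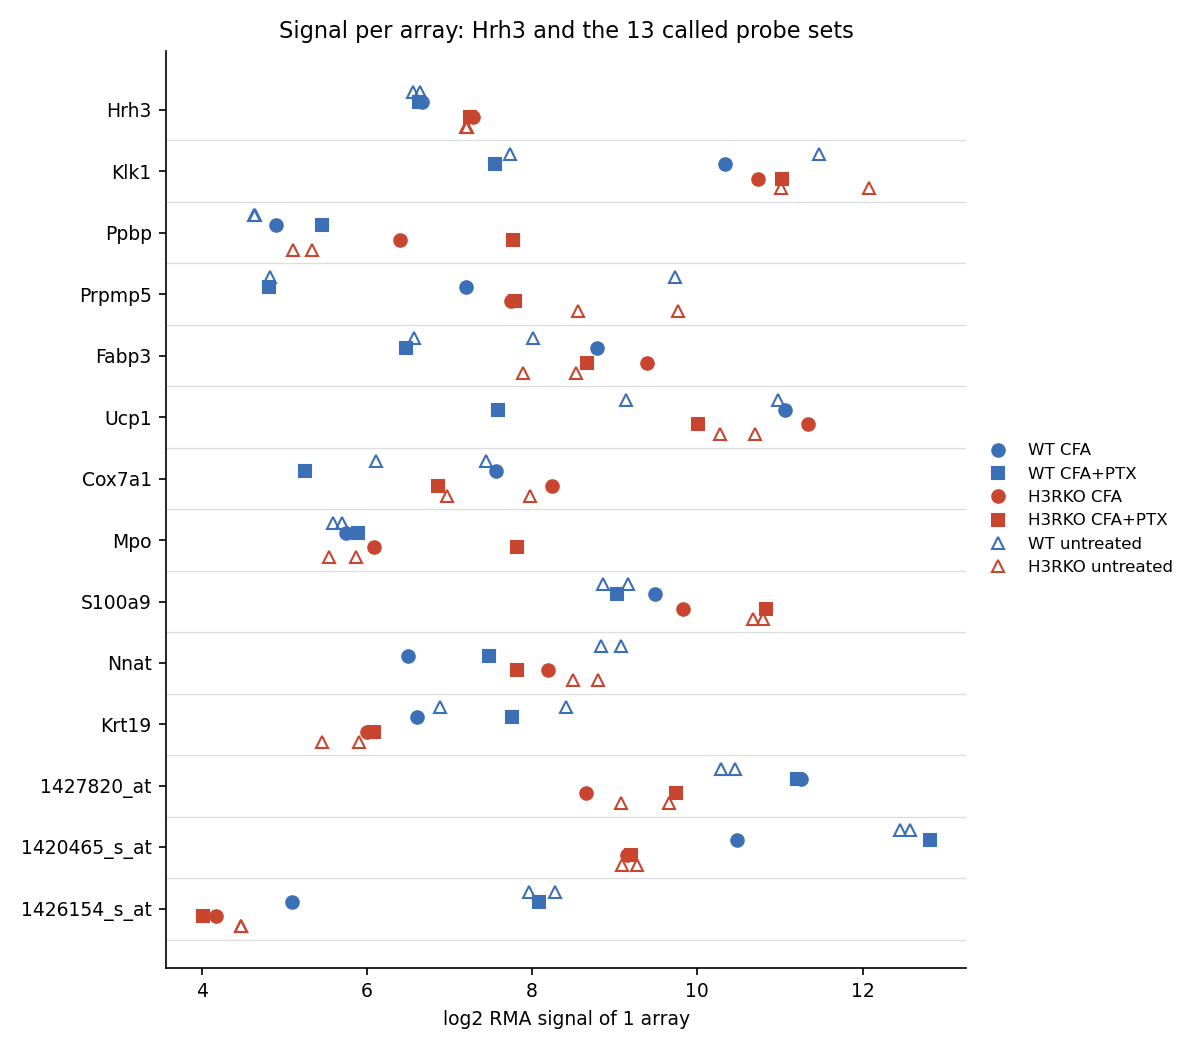
Log2 RMA signal of each of the 8 arrays (x axis) for Hrh3 and the 13 called probe sets (rows), with injected arrays as filled circles (CFA) or squares (CFA+PTX), untreated arrays as open triangles, WT in blue and H3RKO in red. For Ppbp the red filled points at 6.40 and 7.76 lie to the right of every blue point, while for Ucp1 the blue CFA point at 11.06 lies to the right of the red CFA+PTX point at 10.01.

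Neutrophil genes had more signal in injected H3RKO LN, mostly after CFA+PTX. Mpo, myeloperoxidase of the azurophil granule, had 5.75 in WT CFA, 5.89 in WT CFA+PTX, 6.08 in H3RKO CFA and 7.82 in H3RKO CFA+PTX. One array, H3RKO CFA+PTX, stood high and the 3 others lay within 0.33 of each other. The CFA+PTX difference exceeded the CFA difference by 1.59 ± 0.26 in the fit of 6 group means (adjusted p = 0.940 in limma). Of 7 azurophil granule genes measured, 5 were higher in both treatments (26.5% of all genes were), and Mpo (1.13 ± 0.38), Ctsg, cathepsin G (0.84 ± 0.30), and Elane, neutrophil elastase (0.80 ± 0.24), passed an unadjusted p under 0.05 as higher, as did 1.55% of all genes. Prtn3, proteinase 3, had 0.67 ± 0.28 and Lyz2, a lysozyme of all myeloid cells, −0.03 ± 0.08. The list's median was 0.08 after CFA and 1.26 after CFA+PTX, and 4 of the 7, Mpo, Ctsg, Prtn3 and Elane, had a larger difference after CFA+PTX at an unadjusted p under 0.05 (2.99% of all genes differed in either direction). In bulk tissue such a value cannot tell more cells of a type from more RNA per cell.

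S100a9, a subunit of calprotectin, the main cytosolic protein of neutrophils, had 9.48 in WT CFA, 9.03 in WT CFA+PTX, 9.83 in H3RKO CFA and 10.83 in H3RKO CFA+PTX. The groups did not overlap, and the untreated arrays differed more (1.72) than the injected ones (1.07 ± 0.34). Of 24 genes of calprotectin and later neutrophil granules, 21 had a positive difference, 16 of them in both treatments (26.5% of all genes), with a median of 0.20. The median was larger in untreated LN, 0.59, where 14 of the 24 passed an unadjusted p under 0.05, as did 672 of all 12393 genes. The 5 that passed as higher in injected LN (1.55% of all genes) were S100a9, S100a8, the other calprotectin subunit (0.83 ± 0.31), Ngp, a protein of secondary granules (0.85 ± 0.30), Ltf, lactoferrin (0.74 ± 0.22), and Cd177, a neutrophil surface protein (0.69 ± 0.24). Csf3r, the receptor for G-CSF, had a difference of −0.20 ± 0.10 that did not pass, against 0.44 in untreated LN.

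Interferon-induced genes were lower in injected H3RKO LN and higher in untreated H3RKO LN. These genes carry antiviral functions and are switched on by the factor ISGF3 at a short element in their promoters, written GAAA, any 2 bases, GAAA, which was searched on both strands of RefSeq promoter windows of GRCm38.p6 (250 bases before to 50 after the start). It was found in 3.99% of all 27025 genes with a window. Of the 25 interferon-induced genes measured, 19 had a window and 12 of these held it. Among the 11 genes that passed as lower, 9 had a window and 6 held it, and among the other 14, 10 had one and 6 held it. The 4 windows in which a gene that passed as lower held the element before its start are shown, with the element in capitals on either strand (overlapping matches run together). They are shown as examples of the element in genes that passed. Ifit2, Irf7 and Oasl2, which also passed as lower, held no match. A match describes the letters and not a used site.
Ifit3 (chr19:34583353-34583436, plus strand, 156 and 122 bases before the start): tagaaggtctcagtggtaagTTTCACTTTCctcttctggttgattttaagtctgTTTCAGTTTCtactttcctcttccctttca
Rsad2 (chr12:26456543-26456592, minus strand, 120 bases before the start): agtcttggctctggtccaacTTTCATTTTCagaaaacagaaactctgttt
Oas3 (chr5:120777705-120777754, minus strand, 75 bases before the start): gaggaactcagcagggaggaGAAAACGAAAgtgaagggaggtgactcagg
Oas1a (chr5:120907526-120907565, minus strand, 20 and 14 bases before the start): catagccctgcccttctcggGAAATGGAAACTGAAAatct

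Of the 25 genes, 22 had a negative difference and 19 a negative difference in both treatments, as did 22.6% of all genes. In 17 of them both injected H3RKO arrays lay below both injected WT arrays (13.2% of all genes). An unadjusted p under 0.05 was reached by 11, all lower (1.78% of all genes), by 2 (Ifih1 and Stat2) on the CFA+PTX pair alone and by 0 on the CFA pair alone, and none was called, since the differences were small, with a median of −0.24. Ifit2, an antiviral protein with tetratricopeptide repeats, had 10.17 and 10.10 in the WT arrays and 9.71 and 9.68 in the H3RKO arrays, CFA first (−0.44 ± 0.08). Ifit3 of the same family had 11.07 and 11.05 in the WT arrays and 10.77 and 10.71 in the H3RKO arrays (−0.32 ± 0.08). The injected arrays of each genotype lay close together and the 2 genotypes did not overlap.

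Ifih1, the cytosolic sensor of long double-stranded RNA, differed by −0.37 ± 0.11 and Eif2ak2, the kinase PKR, by −0.31 ± 0.09. Oas3 (−0.28 ± 0.09) and Oas1a (−0.29 ± 0.10), which make the activator of the ribonuclease RNase L, Rsad2, viperin (−0.27 ± 0.10), Irf7, the factor that amplifies interferon production (−0.31 ± 0.11), and Zbp1, a sensor of Z-form nucleic acid (−0.25 ± 0.09), were lower as well. Not every member followed. Ifit1 (0.01 ± 0.08) and the chemokines Cxcl9 (0.08 ± 0.11) and Cxcl10 (0.03 ± 0.08) did not pass, and their differences after CFA and CFA+PTX had opposite signs. The genes named here beyond Ifit2, Ifit3, Ifih1 and Eif2ak2 were picked after their values were seen.

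In untreated LN the same list had a median of 0.38 with 24 of 25 genes higher in H3RKO. The change of the genotype difference from untreated to injected LN was tested in the fit of 8 arrays, where 10 of the 25 genes passed an unadjusted p under 0.05 as lower (1.72% of all genes) and none passed adjustment. It was −1.10 ± 0.26 for Ifit2 and −1.20 ± 0.35 for Ifit3. The mean signal of the list was 9.37 and 9.74 in the untreated WT arrays and 9.80 and 10.19 in the untreated H3RKO arrays. It was 10.21 and 10.26 in the injected WT arrays and 10.08 and 9.97 in the injected H3RKO arrays. The 2 untreated arrays of a genotype thus lay further apart than the genotypes did after either injection. In the fit of 8 arrays, which takes its SE in part from that spread, Ifih1 and Stat2 alone passed as lower in injected LN, 2 of the 25 genes (1.5% of all genes).

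**Figure D3:**
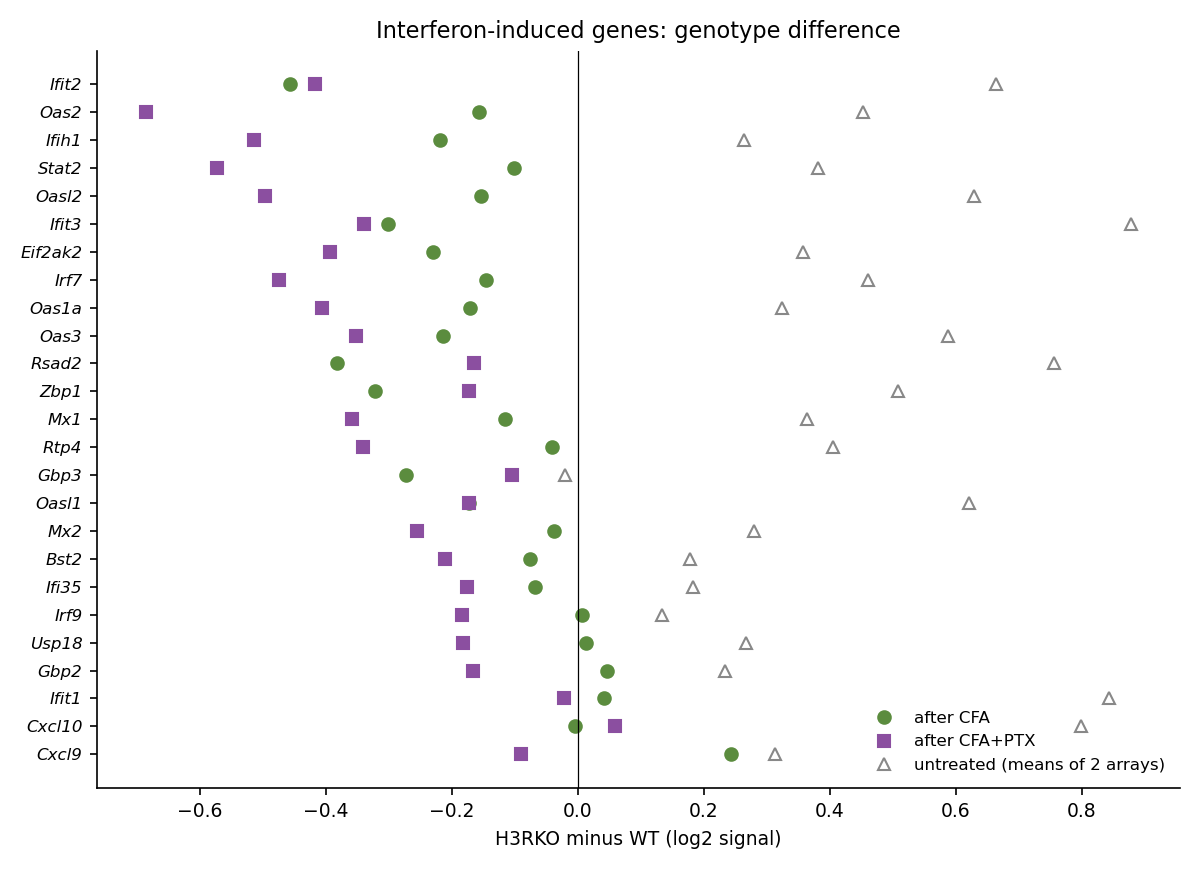
H3RKO minus WT difference (x axis, log2 signal) of the 25 interferon-induced genes (rows, ordered by the mean injected difference) after CFA (green circles), after CFA+PTX (purple squares) and in untreated LN (open triangles). Of the genes, 19 have both filled points left of 0, and 24 have the open triangle right of 0.

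Macrophage genes were lower in injected H3RKO LN by small amounts. Of 17 monocyte and macrophage genes, 16 had a negative difference and 9 were lower in both treatments (22.6% of all genes), with a median of −0.11, and 4 passed an unadjusted p under 0.05 as lower (1.78% of all genes). Siglec1, the sialic acid receptor of subcapsular sinus macrophages, had 7.83 and 8.16 in WT and 7.45 and 7.41 in H3RKO arrays (−0.56 ± 0.12). Fcgr1, the high-affinity IgG receptor, had 9.38 and 9.39 in WT and 9.02 and 8.80 in H3RKO arrays (−0.48 ± 0.10), against a difference of 0.56 in untreated LN. Mrc1, the mannose receptor (−0.24 ± 0.08), and C1qc, a chain of complement C1q (−0.23 ± 0.08), were the others. Fcgr1, Mrc1 and C1qc also passed in the fit of 8 arrays (1.5% of all genes did as lower). The myeloid genes Itgam (−0.11 ± 0.13), Ccr2 (−0.01 ± 0.12), Cd68 (−0.14 ± 0.10) and Adgre1 (−0.09 ± 0.10) did not pass.

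Cytokine and chemokine genes ran both ways. Of 29 measured, 10 were higher and 10 lower in both treatments (26.5% and 22.6% of all genes), and 5 passed as higher and 3 as lower (1.55% and 1.78% of all genes). Il6 had 4.18 and 4.14 in WT and 5.01 and 4.55 in H3RKO arrays (0.62 ± 0.13), all dim signals. Il1b had 8.33 and 7.93 in WT and 8.61 and 8.48 in H3RKO arrays (0.41 ± 0.10), and Ccl2, which attracts monocytes, was higher by 0.36 ± 0.08. Il12b, the subunit that IL-12 and IL-23 share, was the largest of those lower, with 5.88 and 6.98 in WT and 5.57 and 6.18 in H3RKO arrays. The values of H3RKO CFA+PTX and WT CFA overlapped for Il12b, whose difference was −0.55 ± 0.14. Ccl3 (−0.46 ± 0.16) and Ccl12 (−0.23 ± 0.09), ligands of receptors on monocytes, were also lower. Il6, Il1b, Cxcl1 and Ccl2 were thus higher after both adjuvants while Il12b, Ccl3 and Ccl12 were lower. In untreated LN, Il1b differed by 0.77, more than in injected LN, and Ccl12 by 0.49, opposite in sign to injected LN. Il6, Cxcl1, Ccl2, Il12b and Ccl3 differed by −0.09 to −0.01 there. Cxcl5, which also passed as higher (0.29), differed by 0.40 in untreated LN.

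Brown fat genes were higher in H3RKO LN in both treatments, but they varied as much between arrays of the same genotype. LN are embedded in fat, which can hold brown adipocytes, and Ucp1, the uncoupling protein that makes heat, defines these cells. Ucp1 had 11.06 in WT CFA, 7.58 in WT CFA+PTX, 11.34 in H3RKO CFA and 10.01 in H3RKO CFA+PTX. Untreated arrays had 10.98 and 9.14 in WT and 10.70 and 10.28 in H3RKO. WT CFA+PTX stood lowest and the genotypes overlapped. Of the 10 genes measured, all had a positive mean difference and 9 a positive difference in both treatments, and 7 passed an unadjusted p under 0.05 as higher (1.55% of all genes), against 2 (Fabp3 and Ucp1) on the CFA+PTX pair alone and 0 on the CFA pair alone. Fabp3, a fatty acid binding protein (1.40 ± 0.37), Ucp1 (1.35 ± 0.50) and Cox7a1, a cytochrome oxidase subunit of heart and brown fat (1.14 ± 0.23), were called.

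Cidea, a lipid droplet protein (0.89 ± 0.14), Cox8b, another cytochrome oxidase subunit (0.77 ± 0.09), and Slc27a2, a fatty acid transporter (0.69 ± 0.08), passed as well. Cox8b, for example, had 10.04 and 8.43 in WT and 10.74 and 9.27 in H3RKO arrays. Within each treatment H3RKO was the higher by 0.70 and 0.83, yet the CFA+PTX array of each genotype lay below its CFA array by more than that. In 1 of the 10 genes both H3RKO arrays lay above both WT arrays (15.8% of all genes) and in the other 9 the genotypes overlapped, and in the fit of 8 arrays Fabp3 alone passed (1.31% of all genes did as higher). The mean of the list was 7.81 in WT CFA, 6.18 in WT CFA+PTX, 8.15 in H3RKO CFA and 7.23 in H3RKO CFA+PTX. In the untreated arrays it was 7.61 and 6.62 in WT and 7.64 and 7.26 in H3RKO. The median difference in untreated LN was 0.32, with 8 of the 10 genes higher in H3RKO.

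Genes of fatty acid oxidation were higher to a smaller extent. Of 23 measured, 22 had a positive difference, 18 of them in both treatments (26.5% of all genes), with a median of 0.17 against 0.00 in untreated LN. Pdk4, the kinase that diverts pyruvate from oxidation, had 8.43 and 7.80 in WT and 9.17 and 8.71 in H3RKO arrays. The groups did not overlap, the difference was 0.83 ± 0.09 and the untreated difference −0.08. Angptl4, the fasting-induced inhibitor of lipoprotein lipase, had 9.60 and 9.75 in WT and 10.05 and 10.27 in H3RKO arrays (0.49 ± 0.08). Slc25a20, the mitochondrial carnitine carrier (0.33 ± 0.08), Acadvl, which starts the oxidation of very long chains (0.26 ± 0.08), and Acaa2, the mitochondrial thiolase (0.24 ± 0.09), also passed an unadjusted p under 0.05. These were 5 of the 23 genes (1.55% of all genes passed as higher). Pdk4, Angptl4 and Slc25a20, 3 of the 23, passed in the fit of 8 arrays as well (1.31% of all genes did as higher). The mean signal of these genes was 9.76 in WT CFA, 9.56 in WT CFA+PTX, 9.96 in H3RKO CFA and 9.81 in H3RKO CFA+PTX, the order of the brown fat list but for WT CFA and H3RKO CFA+PTX, and the part of brown fat in it was not tested.

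White adipocyte genes as a list turned direction, with a median of 0.35 after CFA and −0.20 after CFA+PTX and 15 of 24 genes opposite in sign (50.8% of all genes). Of the 24, 7 were higher in both treatments (29.2%), near the 26.5% of all genes. The 5 that passed as higher (1.55% of all genes) were Pck1, Lep, Gpd1 (0.45), Aqp7 (0.36) and Scd1 (0.28). Lep, the fat hormone leptin, had 5.37 and 6.40 in WT and 6.61 and 6.78 in H3RKO arrays (0.81 ± 0.21). Pck1, which feeds glycerol synthesis in fat, differed by 0.50 after CFA and 1.14 after CFA+PTX (0.82 ± 0.17) and by −0.52 in untreated LN. The change from untreated to injected LN passed an unadjusted p under 0.05 as higher in Pck1, Scd1 and Plin4, 3 of the 24 genes (2.52% of all genes). Retn, resistin, differed by 0.16 and −1.46, and Fasn, fatty acid synthase, by 0.63 and −0.73. B cell genes had medians of −0.09 and 0.14, with 13 of 15 opposite in sign (50.8% of all genes), and the CFA+PTX minus CFA change passed in none of them. T cell genes had medians of 0.00 and 0.01, and none of 17 passed, also in the fit of 8 arrays.

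**Figure D4:**
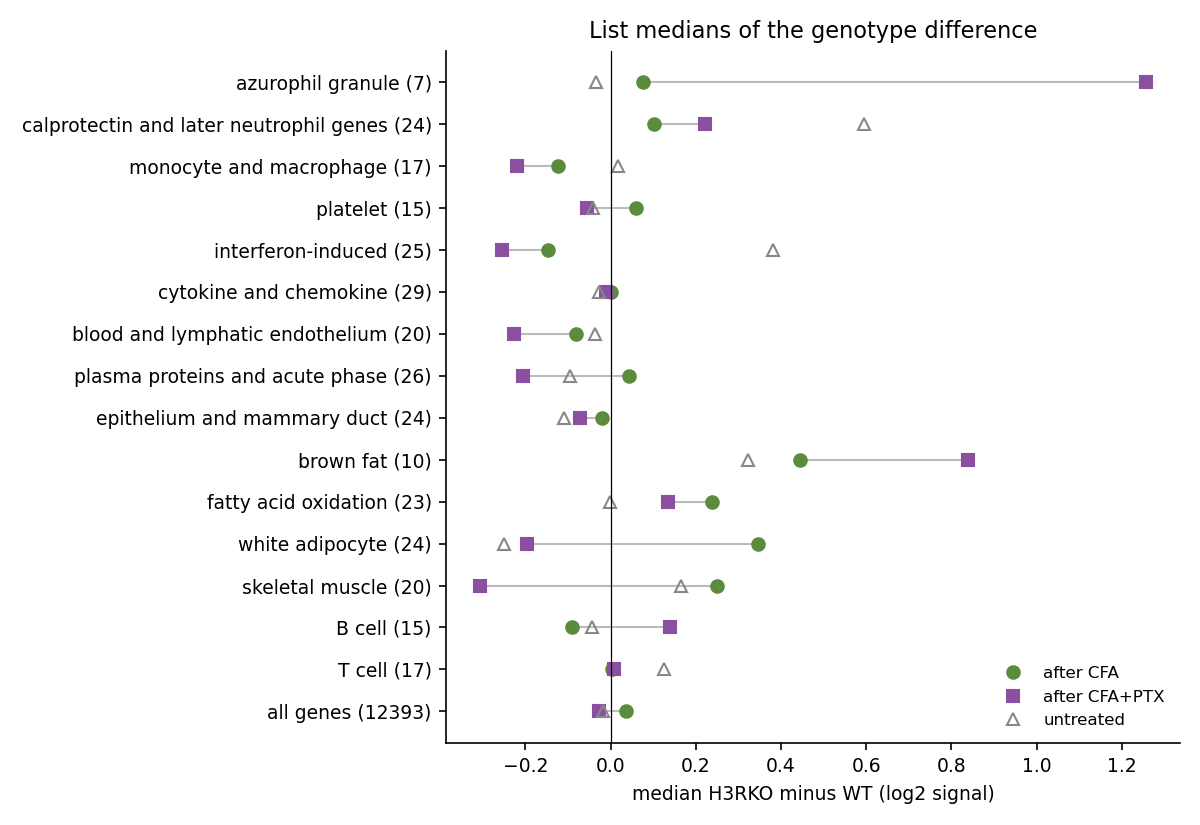
Median H3RKO minus WT difference (x axis, log2 signal) of each gene list after CFA (green circles), after CFA+PTX (purple squares, joined by a line) and in untreated LN (open triangles), with the number of genes measured in parentheses. Interferon-induced and macrophage genes have both filled points left of 0, brown fat, fatty acid oxidation and neutrophil genes right of 0, and white adipocyte, skeletal muscle and B cell genes 1 on each side.

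The called genes Klk1 and Prpmp5 are products of salivary glands, a kallikrein and a proline-rich protein, and followed the gland signal of single arrays. The called probe set of Klk1 (1448107_x_at) had 10.33 in WT CFA, 7.55 in WT CFA+PTX, 10.73 in H3RKO CFA and 11.03 in H3RKO CFA+PTX, and 7.73 and 11.47 in the untreated WT arrays. The low values are the 2 WT arrays with low gland signal. Prpmp5 had 7.20, 4.81, 7.74 and 7.79 in the same order of injected arrays, and 4.83 and 9.73 in untreated WT. Over 17 gland genes the median difference was 0.01 after CFA and 6.24 after CFA+PTX. The brightest probe set of Klk1 differed by 0.30, and the 3 probe sets of Klk1 by 0.30 to 1.94.

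**Figure D5:**
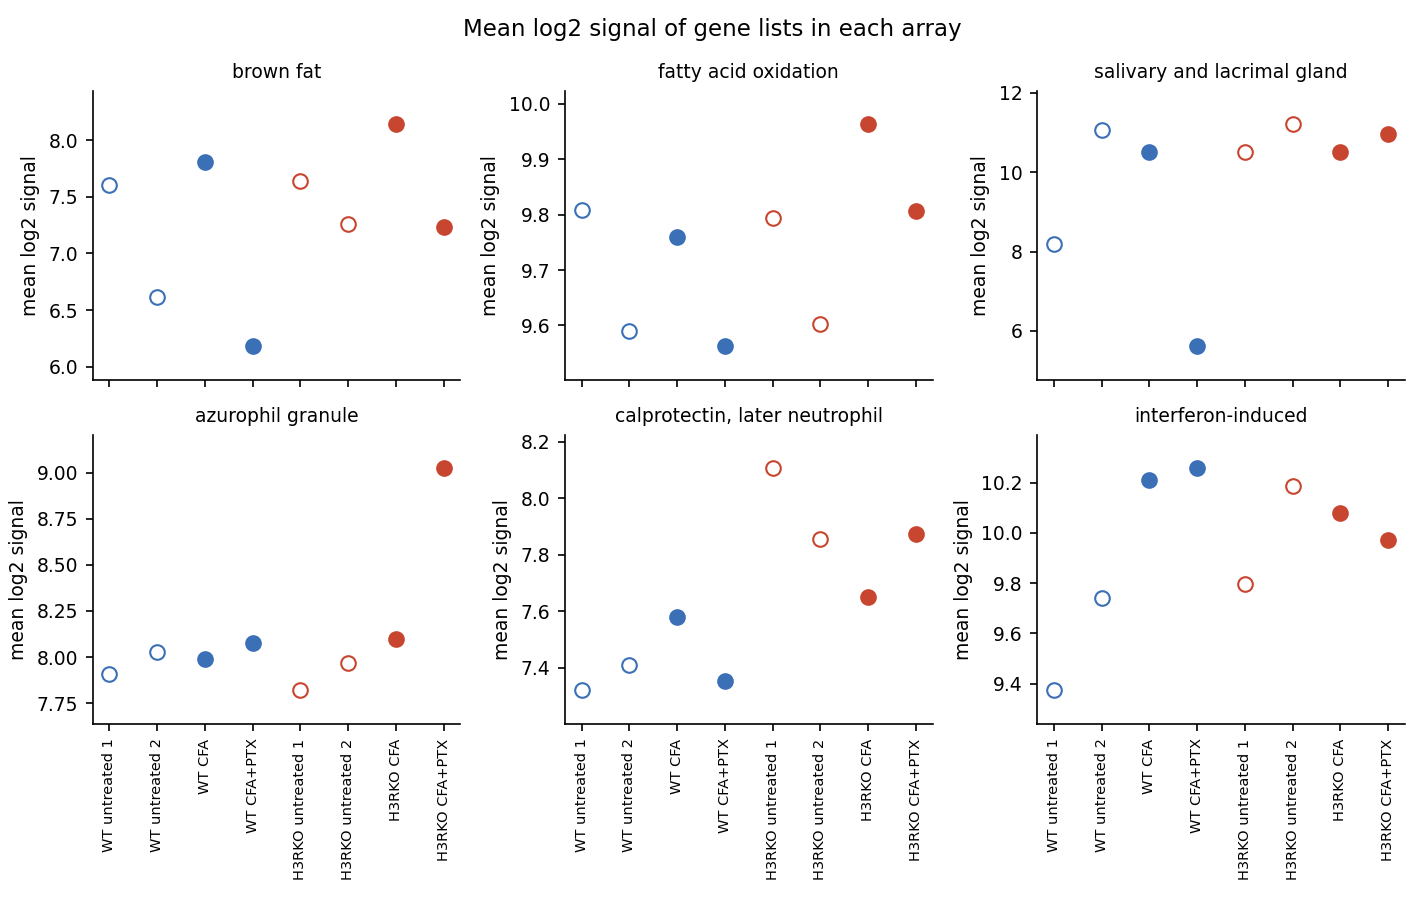
Mean log2 signal of 6 gene lists (panels, y axis) in each of the 8 arrays (x axis), with WT in blue, H3RKO in red, injected arrays filled and untreated arrays open. The gland panel shows WT CFA+PTX at 5.62 and untreated WT 1 at 8.20 below the other 6 arrays, the azurophil panel H3RKO CFA+PTX above the rest, and the brown fat panel WT arrays from 6.18 to 7.81 and H3RKO arrays from 7.23 to 8.15.

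Among the epithelial genes, Krt19, a keratin of ducts, was called lower, with 6.61 and 7.76 in WT and 6.00 and 6.08 in H3RKO arrays (−1.14 ± 0.26). The untreated arrays differed in the same direction by −1.97. Dmbt1, a mucosal scavenger protein (−0.78 ± 0.14), and Foxa1, a factor of ductal epithelium (−0.98 ± 0.25), were lower as well. Of 24 epithelial genes 5 passed as lower (1.78% of all genes) and 1, Ltf, as higher (1.55%). The list as a whole ran both ways, with 10 positive and 14 negative differences and a median of −0.03. In both treatments 7 were higher and 9 lower (26.5% and 22.6% of all genes). In the fit of 8 arrays 1, Foxa1, passed as lower (1.5% of all genes) and 1 as higher (1.31%). Of 26 plasma protein and acute phase genes, 10 were lower in both treatments (22.6% of all genes) and 7 passed as lower (1.78%). Their median was 0.04 after CFA and −0.21 after CFA+PTX. In the fit of 8 arrays 4 of these genes passed as lower (1.5% of all genes), Fgb, Itih3, Itih4 and Serpina3n. Hp, haptoglobin, had 11.14 and 11.79 in WT and 10.95 and 10.50 in H3RKO arrays (−0.74 ± 0.27), Itih4, an acute phase inhibitor family member, differed by −0.68 ± 0.21, and Fgb, a fibrinogen chain, by −0.51 ± 0.11 at a dim signal of 4.57 to 5.30. Alb, albumin, had 0.06 ± 0.08.

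The 3 called probe sets without a gene name were all lower. The signal of 1420465_s_at was 10.48 in WT CFA and 12.81 in WT CFA+PTX against 9.15 and 9.20 in the H3RKO arrays, and 1426154_s_at had 5.09 and 8.09 against 4.17 and 4.01. WT CFA stood well below the 3 other WT arrays in both, and the CFA+PTX difference minus the CFA difference was −2.28 ± 0.21 and −3.16 ± 0.25 (adjusted p = 0.206 for both in limma). The third, 1427820_at, had 11.25 and 11.20 in WT and 8.65 and 9.74 in H3RKO arrays (−2.03 ± 0.27), and 10.45 and 10.29 against 9.08 and 9.66 in untreated LN.

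Nnat, an imprinted gene that encodes the proteolipid neuronatin, was called higher, with 6.50 and 7.47 in WT and 8.19 and 7.82 in H3RKO arrays (1.02 ± 0.32). Untreated LN had 8.50 to 9.07 in both genotypes, so all 4 injected arrays lay below the untreated ones, those of WT the furthest. Of 14 imprinted growth genes, 10 were opposite in sign between treatments, and Peg3 (0.14 ± 0.10) and Ndn (0.20 ± 0.11) did not pass. In the stroma, Lum, the matrix protein lumican, had 8.45 and 8.54 in WT, 9.12 and 9.17 in H3RKO (0.65 ± 0.08) and 9.64 to 10.09 in untreated LN, above all 4 injected arrays. The stromal list did not follow Lum. Of its 21 genes, 7 had a positive and 14 a negative difference, with a median of −0.02. In both treatments 4 were higher and 8 lower (26.5% and 22.6% of all genes). Lum and Col3a1 (0.23) were the 2 that passed as higher (1.55% of all genes), and none passed as lower. Of 20 endothelial genes, 15 were lower in both treatments (22.6% of all genes), by a median of −0.15, and Chst4, a sulfotransferase of high endothelial venules, passed (−0.28 ± 0.09).

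Among the histamine genes, 9 were measured, with a median of 0.08. In 6 of them, Hrh3 included, the sign was positive in both treatments (26.5% of all genes). For 3 of the 6 it was barely so, as the smaller of the 2 differences was 0.004 in Hrh2, 0.004 in Hnmt and 0.005 in Aldh7a1. Besides Hrh3, Hrh1, the receptor that acts on endothelium and T cells, passed an unadjusted p under 0.05, with 5.37 and 5.28 in WT and 5.91 and 5.46 in H3RKO arrays. These signals were dim, the difference was 0.36 ± 0.12, and untreated LN differed by −0.16. Hdc, the enzyme that makes histamine, differed by 0.10 ± 0.08 after injection and by 0.78 in untreated LN.

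Some genes outside the lists had nearly the same difference in both treatments and were picked for this after their values were seen, so they are descriptions. Ide, the insulin-degrading enzyme, was lower in both treatments on 4 of 4 probe sets (−0.68 to −0.51). On 1453988_a_at it had 7.82 and 7.92 in WT and 7.16 and 7.23 in H3RKO arrays, and a difference of 0.50 in untreated LN. Abca1, the cholesterol exporter of macrophages, was lower on 3 of 3 probe sets (−0.78 to −0.26). F13a1, coagulation factor XIII of macrophages, differed by −0.60 in each treatment and by 0.48 in untreated LN. C6, a complement component (−0.74 ± 0.08), and Calml4, a calmodulin-like gene (−0.75 ± 0.08), were lower, and G0s2, an inhibitor of lipolysis (0.68 ± 0.09), was higher. Npr3, the clearance receptor of natriuretic peptides, was higher on 1 of 3 probe sets (0.93 ± 0.16). The other probe sets of Npr3 did not pass, with differences down to 0.09, and 1 was opposite in sign between the treatments.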

How the data were processed

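LN RNA from 8 pools had been put on single-channel Affymetrix mouse arrays. The deposited values are log2 RMA signals, which the authors background-corrected, normalized and summarized per probe set (in Partek, by the methods), which brings the arrays close to a common distribution. Of 22690 probe sets, 64 were controls and set aside. The reference table pairs 20380 with 1 gene, 691 with several and 1555 with none. The 4 injected arrays were fitted with genotype and treatment in limma 3.58.1 (R 4.3.3; 1 residual and 3.72 prior degrees of freedom). All 8 arrays were fitted with an injected and an untreated genotype difference, or with 6 group means. With 6 group means each injected group holds 1 array, so the SE comes from the untreated pairs, moderated across probe sets. Injected pools were not replicated within a genotype and treatment, so the number of arrays limits the precision.

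Members and lists were chosen with earlier results of these data known. Named genes are Hrh3, the called genes and up to 4 genes per list and direction with the largest difference shared by both treatments, or, in lists whose direction turned, with the largest difference in each. Other genes were picked after their values were seen. A gene's value in a list is that of its brightest probe set. Other models, scalings, filters, thresholds and left-out arrays were tried as alternatives. The model code was tested on simulated data, and plots were drawn with matplotlib 3.10.9. The reference gene and promoter tables are RefSeq of GRCm38.p6, and the study's PCR and disease experiments are not analysed here.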

Additional observations from a re-analysis of the deposited data

Results flagged for a closer look

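Over all probe sets, 35 genotype differences changed by more than 1 on the log2 scale between untreated and injected LN, and 167 between CFA and CFA+PTX, at an unadjusted p under 0.05 in the fits of 8 arrays. Those among the genes named by the rule and the genes with a like difference in both treatments are given here. None passed adjustment (adjusted p = 0.938 for every change from untreated to injected LN and at least 0.206 for every change from CFA to CFA+PTX, limma), and the causes were not tested.

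From untreated to injected LN, among these, the H3RKO minus WT difference moved up in Pck1 (1.336), Nnat (1.319), Ppbp (1.316) and the azurophil gene Prtn3 (1.039). It moved down in Mt2, a metallothionein (−1.391), Ifit3 (−1.198), Ide (−1.175), Ifit2 (−1.10), F13a1 (−1.086), Fcgr1 (−1.035), 1427820_at (−1.031) and Abca1 (−1.011). In Ifit2, Ifit3, Fcgr1, Ide, Abca1, F13a1 and Mt2 it turned from positive to negative, and in Pck1, Nnat and Prtn3 from negative to positive.

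From CFA to CFA+PTX, among these, the difference moved up in Mpo (1.594), S100a9 (1.452), Ngp (1.264), Ctsg (1.241), Prtn3 (1.181) and 1427820_at (1.134). It moved down in 1426154_s_at (−3.158), 1420465_s_at (−2.283), Nnat (−1.35) and Foxa1 (−1.038). For the neutrophil genes in this group the H3RKO CFA+PTX array was the highest of the injected arrays, and for 1426154_s_at and 1420465_s_at the WT CFA array was the low one of the WT arrays. Each of these changes rests on 1 array per genotype and treatment.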

How the results depend on the processing

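For 105 named probe sets, 1009 recomputed values kept direction and side of the threshold, 409 no longer passed, 22 passed newly and 2 turned sign. The 2 are Txnip (−0.00345) and Col1a2 (0.03282), with the probe set of largest variance. The count of 13 called probe sets was 8 with all 8 arrays (all 8 among the 13), 12 with 6 group means (8 among the 13), 7 without treatment in the model, 7 with 6 group means and no moderation, 3 with a trended robust prior (Ppbp, Krt19 and Cox7a1) and 73 at a fold change over 1.5. The count of 10 genes was 5, 8, 4, 4, 3 and 55 in the same order. Requantiling or median centring left 10 and 11 probe sets, and leaving out dim ones or shared-sequence ones 10 each, and no scaling moved the median of all probe sets by over 0.03. With 6 group means 3 probe sets passed adjustment (Ppbp, 1420465_s_at and 1426154_s_at). Over 2-fold in both treatments stood 3 probe sets, and 24 passed at 1.5-fold. Leaving out an array leaves 1 treatment with both genotypes, so that the value comes from the pair of the other treatment alone, with an SE from the untreated arrays, on the assumption that the lone arrays vary like these. Then 51 (CFA pair) to 82 (CFA+PTX pair) probe sets and 39 to 52 genes were called, 4 and 8 probe sets among the 13, and 0 to 2 passed adjustment.

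The replicate numbers of the untreated arrays do not come from a shared source in the labels, and their deviations correlated at r = 0.123 across probe sets. With them as a replicate block in the fit of 6 group means, 22 probe sets and 17 genes were called (12 of the 22 among the 13), and 4 probe sets passed adjustment, the 3 above and a salivary gland gene, Bpifa2.

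The list counts under other models were chosen after seeing the data. The genes that passed in each list were, with all 8 arrays, with 6 group means and as a range over left-out arrays (fewest without a CFA+PTX array, most without a CFA array), 2, 2 and 0 to 2 instead of 11 for interferon-induced genes, 3, 1 and 0 to 0 instead of 4 for macrophage genes, 1, 1 and 0 to 2 instead of 7 for brown fat, 3, 3 and 0 to 3 instead of 5 for fatty acid oxidation and 4, 4 and 0 to 7 instead of 7 for plasma proteins. The cause of these differences was not tested.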

Other observations

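Some lists not described above had members that passed. Among 17 NK and cytotoxic lymphocyte genes, 4 passed an unadjusted p under 0.05 as lower in injected H3RKO LN (1.78% of all genes): Gzmb, granzyme B (−0.46), and the receptor genes Klrk1 (−0.31), Ncr1 (−0.28) and Klrc1 (−0.26). Their list as a whole had a median of 0.01, with 9 genes of positive and 8 of negative difference. Among 14 mast cell and basophil genes, 1 passed as lower (1.78% of all genes), the tryptase Tpsab1 (−0.30). Another 1 passed as higher (1.55%), Mcpt8, a protease of basophils (0.22). Of 8 immunoglobulin genes, 2 passed as higher (1.55% of all genes). Igha, the IgA heavy chain, differed by 0.18 after CFA and 1.56 after CFA+PTX (0.87) on its brightest probe set, and Iglv1 by 0.33. The study reported the IgA heavy chain as lower in H3RKO LN after CFA and higher after CFA+PTX. Of the 11 probe sets of Ighm, the IgM heavy chain, 7 had opposite signs after CFA and CFA+PTX. Among 19 glucocorticoid-induced genes, 1 passed as higher (1.55% of all genes), Pdk4. Another 4 passed as lower (1.78%), Sult1a1 (−0.37), Mt2 (−0.30), Mt1 (−0.26) and Klf9 (−0.23), and none as lower in the fit of 8 arrays (1.5%). In untreated LN Mt2 and Mt1 differed by 1.10 and 0.43, and Sult1a1 and Klf9 by −0.18 and −0.001.

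Of 17 clock genes, 10 were opposite in sign after CFA and CFA+PTX (50.8% of all genes), and the change between treatments passed an unadjusted p under 0.05 in none. Per2, a repressor of the clock, differed by 0.48 after CFA and −0.34 after CFA+PTX, and Dbp, an output factor of the clock, by 0.45 and −0.43. The list's median was 0.15 after CFA and −0.21 after CFA+PTX. Cry1, another repressor, was higher in both treatments (0.24) and passed. The hour at which the LN were taken is not given in the sources used here.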
